A study of Mus musculus with 6 samples.

Results

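Binding sites of the Smad transcription factors were examined around 8 regulators of tooth epithelium: the transcription factor genes Trp63, Tfap2a, Tfap2b, Bcl11b and Sp6, the receptor gene Edar and the cadherin genes Cdh1 and Cdh3. The 8 genes were listed by name among 21887 protein-coding genes, and a peak was assigned to a gene when its summit lay inside the gene or within 50 kb of either annotated end. The peaks come from chromatin immunoprecipitation followed by sequencing (ChIP-seq) of molar tooth germs and of limbs, both taken from wild-type CD1 mouse embryos at E13.5, the bud stage of the molar. Each tissue was precipitated with an antibody to pSmad1/5 and with an antibody to Smad4, which gives 4 peak lists from 1 library each, and 2 input samples were not used here. The number of embryos pooled in a library was not analysed here. With 1 library per group no test between tissues was possible, and intervals below cover counting error only.

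pSmad1/5 is the phosphorylated form of the Smads that carry signals of bone morphogenetic proteins (BMPs) to the nucleus, and Smad4 is the partner that they share with the Smads of TGF-beta and activin. In the tooth bud an epithelium grows into condensing mesenchyme, and BMP4 passes between the layers; in the limb, surface ectoderm and the apical ridge cover the mesenchyme. Both tissues therefore hold epithelial and mesenchymal cells. The lists hold peaks and no RNA, so the tissue labels could not be checked against marker genes, and which cells carry a peak was not measured. A site used in fewer cells and a site less occupied in each cell cannot be told apart in such tissue samples.

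The lists are not equally deep. Over the main chromosomes those of pSmad1/5 hold 23387 peaks in limb and 35476 in molar, and those of Smad4 hold 29754 and 34561, and read depth is unknown. Each peak carries the authors' enrichment score, whose scale is not stated. On the 7 chromosomes of the 8 genes limb peaks went down to a score of 3, rounded down. Molar pSmad1/5 peaks went down to 2 on chromosomes 1, 12, 13 and 16, which carry Tfap2b, Bcl11b, Tfap2a and Trp63, and to 3 on the other three. Molar Smad4 peaks stopped at 4 on chromosomes 8 and 11, which carry the cadherins and Sp6, and at 3 on the other five. Counts of molar and limb peaks at the 8 genes are therefore given beside those of the chromosome, and with a score of at least 3 where the molar pSmad1/5 list goes lower.

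All 8 genes had a molar pSmad1/5 peak, 7 had a limb Smad4 peak, and 6 had a limb pSmad1/5 peak and 6 a molar Smad4 peak. Among all protein-coding genes 74.9% had a molar pSmad1/5 peak, 71.2% a limb Smad4 peak, 68% a limb pSmad1/5 peak and 68% a molar Smad4 peak. On the 7 chromosomes of the 8 genes these shares were 82.6%, 77.2%, 71% and 70.9% in the same order. Trp63 and Tfap2b lacked a limb pSmad1/5 peak, Tfap2b lacked a limb Smad4 peak, and Tfap2b and Sp6 lacked a molar Smad4 peak. Peaks in all 4 lists were found at 5 of the 8 genes (Tfap2a, Bcl11b, Edar, Cdh1 and Cdh3), against 44.4% of all protein-coding genes and 47.3% of those on the same chromosomes. These shares were not tested against each other. The only molar Smad4 peak at Cdh1 lay 23618 bp above that gene, inside the neighbouring gene Tango6. Counting nearest genes only, Cdh1 had 0 molar Smad4 peaks.

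Distinct peaks around the 8 genes numbered 28 for pSmad1/5 and 35 for Smad4 in limb, and 46 for pSmad1/5 and 29 for Smad4 in molar. Windows of the same length at the average density of each gene's chromosome would hold 12.4, 15.6, 23.0 and 16.5 peaks in that order. In limb the observed numbers were 2.26 times that density for pSmad1/5 (95% interval 1.5 to 3.27) and 2.24 times for Smad4 (1.56 to 3.12). In molar they were 2.0 times for pSmad1/5 (1.47 to 2.67) and 1.75 times for Smad4 (1.17 to 2.52). The median gene of the 8 had 3.5, 3.5, 4.5 and 2.5 peaks in that order, and the median protein-coding gene of the same chromosomes had 2, 2, 3 and 2. The spread within the group was wide, from 2 peaks over all lists at Tfap2b to 50 at Bcl11b. Bcl11b alone held 9, 14, 18 and 9 of the peaks in that order. The chromosome density covers stretches with and without genes, so numbers above it need not set these genes apart from others. At Cdh1, limb pSmad1/5 peaks were 2.33 times the density, and 36.0% of the chromosome's genes had as many. The ratio was not computed for other genes.

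Between tissues, molar peaks made up 62.2% of the 74 pSmad1/5 peaks near the genes (95% exact binomial interval 50.1 to 73.2%), where the chromosomes' own densities give 65.0%. For Smad4 the molar share was 45.3% of 64 peaks (32.8 to 58.3%), where the chromosomes give 51.4%. Neither share left the chromosome value beyond counting error. With a score of at least 3 the molar pSmad1/5 list kept 30 of its 46 peaks near these genes, against 28 limb peaks. The molar share was then 51.7% (38.2 to 65.0%), above the 41.9% that the chromosomes give at that score, where over all scores it lay below; both chromosome values are inside the intervals. These 30 peaks were 3.36 times the density of molar pSmad1/5 peaks of that score on the same chromosomes. Gene by gene, 6 of 8 had more molar than limb pSmad1/5 peaks and 2 had fewer, with 43.3% and 30% of all protein-coding genes on these sides, and 52.6% and 27.7% of those on the same chromosomes. For Smad4, 2 had more and 4 had fewer, with 32.1% and 42.8% of all genes and 31.6% and 48.8% of those on the same chromosomes. Among these 4, Sp6, Cdh1 and Cdh3 lie where the molar Smad4 list stops at a score of 4. With a score of at least 4, limb and molar Smad4 counts were 0 and 0 at Sp6 and 0 and 1 at Cdh1, the 1 inside Tango6. They were 1 and 1 at Cdh3, 2 and 4 at Bcl11b, 0 and 0 at Trp63 and 0 and 1 at Edar. Of the 6 with more molar pSmad1/5 peaks, Trp63, Tfap2a, Tfap2b and Bcl11b lie where the molar list goes down to a score of 2; with a score of at least 3 the counts were 5 more and 3 fewer (27.7% and 39% of all genes), and Bcl11b changed sides.

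**Figure D1:**
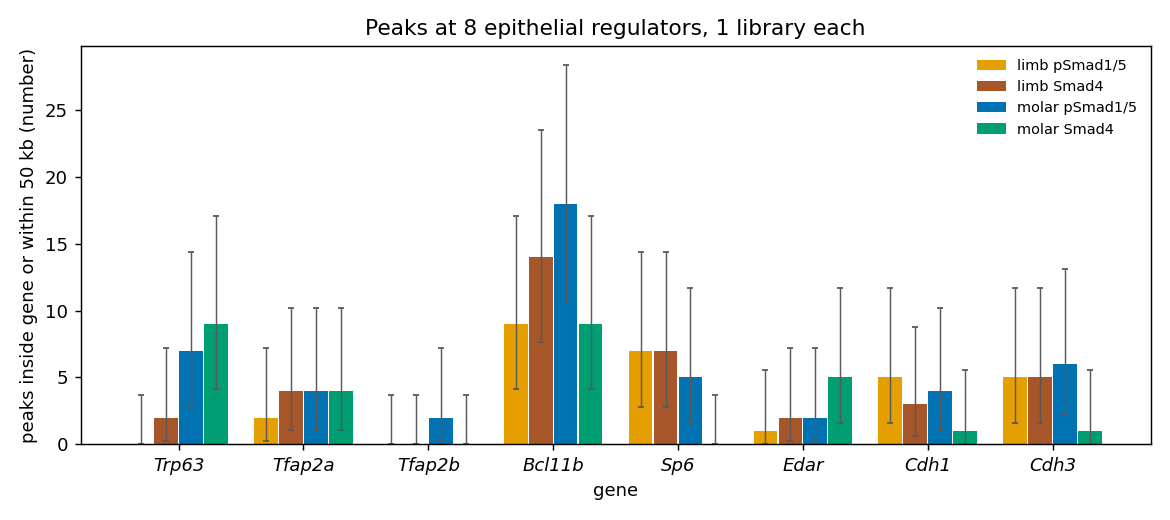
Number of peaks inside each gene or within 50 kb of it (y axis) for the 8 genes (x axis), with 1 bar per library and exact 95% Poisson intervals, which cover counting error only. Bcl11b has 9 to 18 peaks, the most in every list with Trp63 level at 9 for molar Smad4, Trp63 has 7 and 9 molar against 0 and 2 limb peaks, and Sp6 has no molar Smad4 bar.

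Close to gene ends, molar pSmad1/5 peaks were the most numerous in the lists as deposited, with 5 within 1 kb, against 2 for limb pSmad1/5, 2 for limb Smad4 and 1 for molar Smad4. With equal numbers of top-scoring peaks per chromosome these counts were 2, 0, 2 and 1, so that molar pSmad1/5 and limb Smad4 were level. Within 1 kb of an annotated end, 5 of the 8 genes had a molar pSmad1/5 peak (20.7% of all protein-coding genes), and 1 gene each had a limb pSmad1/5 peak (15.5%), a limb Smad4 peak (21.8%) and a molar Smad4 peak (7.76%). On the same chromosomes these shares were 25.5%, 17.1%, 26.1% and 7.5% in that order. The molar pSmad1/5 summits lay 94 bp from an end of Edar, 118 bp from Cdh3, 362 bp from Cdh1, 717 bp from Sp6 and 961 bp from Bcl11b. Of these 5 peaks, 1 had a score of at least 4. Those of Edar, Cdh3, Cdh1 and Sp6 scored 3.10, 3.20, 3.0 and 3.02, on chromosomes where that list stops at 3. The limb pSmad1/5 gene was Cdh3, the limb Smad4 gene Tfap2a and the molar Smad4 gene Trp63. Within 5 kb there were 5 pSmad1/5 and 4 Smad4 peaks in limb, and 12 and 6 in molar.

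Trp63 encodes p63, the transcription factor that establishes stratified epithelia and is needed for limbs, teeth and skin. It lies at chr16:25683763-25892088, and its window of 308 kb is the longest of the group and holds no other protein-coding gene. For pSmad1/5 it had 0 peaks in limb and 7 in molar, and for Smad4 it had 2 and 9. Molar peaks were thus the more numerous for both antibodies, which within 50 kb held for no other gene of the group but Edar. Which genes share this depended on the window. Within 100 kb it also held for Tfap2a (2 limb and 6 molar pSmad1/5, 4 and 6 Smad4 peaks) and Tfap2b (0 and 3, 0 and 2). At Edar it did not hold there (2 and 2, 2 and 9). The molar shares at Trp63 were 100% for pSmad1/5 (59.0 to 100%) and 81.8% for Smad4 (48.2 to 97.7%). Chromosome 16 has 75.9% and 56.0%, both inside the intervals. The limb pSmad1/5 list had its nearest peak 213100 bp from the gene, and a count of 0 allows up to 3.69 peaks by the exact Poisson interval. At the chromosome's density the window would hold 2.56 limb and 8.05 molar pSmad1/5 peaks, so neither count left the chromosome's level beyond counting error. For molar Smad4 the 9 peaks were 2.31 times the chromosome's density (1.06 to 4.38), and 3.09% of protein-coding genes on chromosome 16 had as many. This is a count that gene length helps to reach, since a longer window holds more peaks.

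Most molar peaks of Trp63, 13 of 16, lay above the midpoint of the gene, toward or beyond its upper-coordinate end. The highest-scoring was a molar pSmad1/5 peak at chr16:25889146-25889200 with a score of 4.03, 2893 bp inside that end. A molar Smad4 peak (score 3.25) had its summit 204 bp away at 25888991, and a further molar Smad4 summit (score 3.63) lay 348 bp from the end. The limb Smad4 peaks scored 3.39 and 3.66 and lay inside the gene, the latter 8657 bp from the upper end. No Trp63 peak overlapped a peak of another list. With a score of at least 3, Trp63 had 0 limb and 3 molar pSmad1/5 peaks, and its Smad4 counts stayed at 2 and 9. With equal numbers of top-scoring peaks per chromosome in all lists it had 0 and 3 pSmad1/5 and 2 and 5 Smad4 peaks, so the order of the tissues was kept in both settings.

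**Figure D2:**
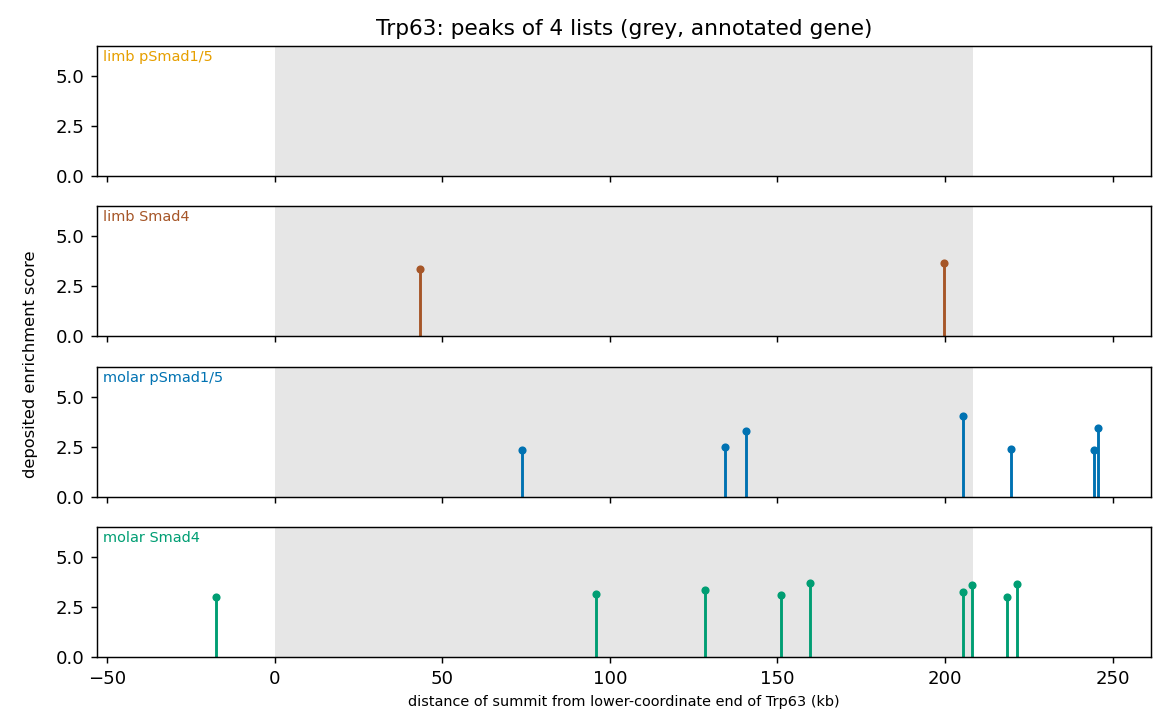
Peaks at Trp63 in the 4 lists, plotted by summit position relative to the lower-coordinate end of the gene (x axis, kb) and deposited enrichment score (y axis), with the gene in grey. The limb pSmad1/5 panel is empty, the limb Smad4 panel has 2 peaks, and the molar panels have 7 and 9, several of them around the upper end of the gene.

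Tfap2a and Tfap2b encode AP-2 factors, which act in surface ectoderm and in neural crest cells and their descendants. Tfap2a (chr13:40713802-40738238) had 2 pSmad1/5 peaks in limb and 4 in molar, and 4 Smad4 peaks in either tissue. On chromosome 13, 73.6% of the pSmad1/5 peaks and 68.5% of the Smad4 peaks of both tissues were molar, so the molar shares at Tfap2a (66.7%, 22.3 to 95.7%, and 50%, 15.7 to 84.3%) did not leave the chromosome's beyond counting error. With a score of at least 3 the pSmad1/5 counts were 2 and 3. The places differed between the tissues. Limb Smad4 peaks lay 302 and 508 bp above the upper end (scores 3.81 and 3.73), and 2 more lay inside the gene. The upper end is that of the annotated span. The promoter windows of Tfap2a have starts on the minus strand at 40733795 and 40734920, inside that span. The limb Smad4 summit nearest to these starts lay 2227 and 3352 bp downstream of them, inside the gene. In molar, no Smad4 summit lay inside the gene, and the nearest was 3284 bp above it.

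Inside Tfap2a both limb antibodies met at a single site. The pSmad1/5 peak chr13:40731441-40731665 (score 3.34) and the Smad4 peak chr13:40731521-40731569 (score 4.40) overlapped, with summits 16 bp apart and 6686 bp below the upper end. Below the lower end, pSmad1/5 peaks of both tissues gathered without overlapping. The limb peak had its summit 9696 bp from the gene and a score of 5.09, rank 657 in its list, and the molar peaks lay at 8543 bp (score 3.54) and 7660 bp (score 3.93). A molar Smad4 peak stood close by, at 6906 bp. The strongest molar Smad4 peak of the gene, score 4.90 and rank 886 in its list, lay 21984 bp above the upper end.

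Tfap2b (chr1:19208908-19238845) was the gene with the fewest peaks. It had 2 molar pSmad1/5 peaks and 0 in the other three lists. One summit lay 1148 bp inside the lower end (score 3.03) and the other 43815 bp below the gene, inside the neighbouring family member Tfap2d (score 2.48), so that 1 peak is left with a score of at least 3. The nearest peaks of the other lists lay 72946 bp from the gene for molar Smad4, 186493 bp for limb pSmad1/5 and 317916 bp for limb Smad4. On chromosome 1 the molar pSmad1/5 list is at its densest relative to limb, with 4904 peaks against 763. A gene with 2 or more molar pSmad1/5 peaks is common there (84.7% of protein-coding genes), and 10.5% of the genes had no molar Smad4 peak. The sequence is shown because of the 5 promoter windows matched, for 4 of the 8 genes, it is the only one with the GC-rich Smad element GGCGCC. The window spans the 300 bases from 250 before to 50 after the annotated start (RefSeq, GRCm38.p6, chr1:19211804-19212103, plus strand). Capitals mark GGCGCC, which reads the same on both strands, and the Smad box GTCT or its reverse complement AGAC.
Tfap2b: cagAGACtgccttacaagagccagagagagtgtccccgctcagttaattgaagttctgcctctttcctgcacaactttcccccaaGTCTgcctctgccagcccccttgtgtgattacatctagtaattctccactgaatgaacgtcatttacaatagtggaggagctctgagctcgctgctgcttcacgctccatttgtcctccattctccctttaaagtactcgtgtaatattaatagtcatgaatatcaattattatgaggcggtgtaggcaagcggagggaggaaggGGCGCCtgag
The window holds GGCGCC in 1 place, GTCT in 1 and AGAC in 1. No peak of the 4 lists overlapped it, and the nearest molar pSmad1/5 summit lay 1998 bp upstream of the start used for this window, 19212054. The annotated span of the gene begins lower, at 19208908, so that summit is inside the span yet upstream of this start. GGCGCC occurs in 11.9% of the 32851 promoter windows of RefSeq, GTCT or AGAC in 88%, and the joined form GTCTAGAC, which contains both boxes, in 0.213%. Such matches describe the letters and do not mark sites of binding.

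Bcl11b encodes a zinc finger factor (also called Ctip2) known from T cells and from tooth and skin epithelium, where ameloblasts depend on it. It lies at chr12:107910403-108004145 with no other protein-coding gene within 50 kb. For pSmad1/5 it had 9 peaks in limb and 18 in molar, and for Smad4 it had 14 and 9. In limb its density was 4.80 times the chromosome's for pSmad1/5 (2.20 to 9.11) and 6.14 times for Smad4 (3.36 to 10.3). In molar it was 4.29 times (2.54 to 6.78) and 2.62 times (1.20 to 4.98). Of the protein-coding genes on chromosome 12, 7.81% and 4.27% had as many limb peaks and 1.91% and 7.36% as many molar peaks of these antibodies. All 4 intervals lay above the chromosome's density, which was the case for no other gene here.

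At Bcl11b the molar shares did not leave those of the chromosome beyond counting error, though for Smad4 the order of the tissues was opposite. The molar share of the pSmad1/5 peaks was 66.7% (46.0 to 83.5%), where chromosome 12 as a whole has 69.1%. With a score of at least 3 there were 9 limb and 8 molar pSmad1/5 peaks. For Smad4 the molar share was 39.1% (19.7 to 61.5%) and the chromosome's 60.1%, a value just inside the interval. Bcl11b had fewer molar than limb Smad4 peaks, where chromosome 12 has more, 2070 against 1376.

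Molar pSmad1/5 peaks lay on both sides of the start of Bcl11b. Summits lay 3706 and 1173 bp inside the upper-coordinate end (scores 2.22 and 3.78) and 961 and 2355 bp beyond it (scores 4.07 and 3.84). The last 2 were the gene's highest in that list. The nearest limb summits to that end lay 10730 bp away for pSmad1/5 and 14002 bp away for Smad4, and the nearest molar Smad4 summit 4181 bp away. RefSeq places a start of Bcl11b on the minus strand close to that end, and its promoter window (GRCm38.p6, chr12:108003365-108003664) is printed because the molar pSmad1/5 summits lie on either side of it. Capitals mark GTCT and AGAC.
Bcl11b: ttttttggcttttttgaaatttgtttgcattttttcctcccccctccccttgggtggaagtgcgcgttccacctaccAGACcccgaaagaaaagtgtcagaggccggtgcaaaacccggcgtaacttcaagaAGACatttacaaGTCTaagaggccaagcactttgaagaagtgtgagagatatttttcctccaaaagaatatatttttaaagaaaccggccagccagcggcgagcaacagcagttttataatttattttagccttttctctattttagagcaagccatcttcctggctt
GTCT occurs in 1 place and AGAC in 2, and GGCGCC does not occur. The nearest molar pSmad1/5 peak lay 362 bp from the window, with its summit 442 bp downstream of the annotated start, and no peak overlapped the window.

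Further into Bcl11b a few peaks of different lists overlapped. A limb pSmad1/5 peak (chr12:107980245-107980293, score 3.04) and a molar pSmad1/5 peak (chr12:107980233-107980309, score 3.09) overlapped with summits 8 bp apart, 23855 bp from the upper end. The limb Smad4 peak chr12:107916171-107916278 (score 3.09) overlapped the molar pSmad1/5 peak chr12:107916149-107916217 (score 2.88). Above the gene, a limb and a molar Smad4 summit lay 190 bp apart without overlap, 39414 and 39604 bp from the upper end, with scores of 3.60 and 4.62. The highest score of the whole group was that of a limb Smad4 peak inside Bcl11b, chr12:107990098-107990166, at 5.84.

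**Figure D3:**
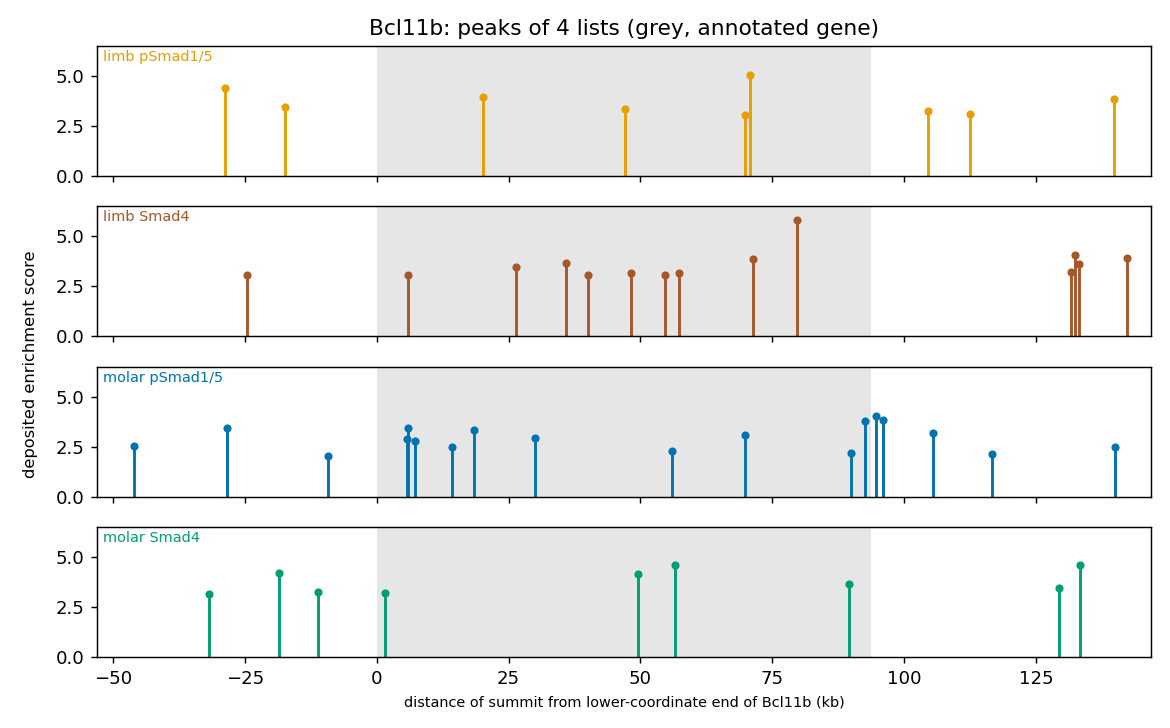
Peaks at Bcl11b in the 4 lists by summit position relative to the lower-coordinate end of the gene (x axis, kb) and deposited enrichment score (y axis), with the gene in grey. Molar pSmad1/5 has 4 peaks around the right edge of the gene, within 3706 bp of the upper end, where neither limb list has a peak.

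Sp6, also called epiprofin, encodes a zinc finger factor of tooth and hair epithelium. It lies at chr11:97013569-97024739 among close neighbours, and its window holds Sp2, Scrn2, Lrrc46, Mrpl10 and Osbpl7. For pSmad1/5 it had 7 peaks in limb and 5 in molar, and for Smad4 it had 7 and 0. On chromosome 11 the molar Smad4 list holds 555 peaks and the limb list 2566, and 48.6% of protein-coding genes there had no molar Smad4 peak. The absence at Sp6 is thus that of many genes of the chromosome. At the chromosome's density the window would hold 0.520 molar Smad4 peaks. None of the 7 limb Smad4 peaks reached a score of 4, at which the molar Smad4 list stops on chromosome 11. The highest scored 3.91. The pSmad1/5 density was 4.39 times the chromosome's in limb (1.76 to 9.04) and 3.86 times in molar (1.25 to 9.0). Gene density differs along a chromosome, and 12.9% and 20% of the chromosome's genes had as many pSmad1/5 peaks.

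Only some of these peaks have Sp6 as the nearest gene: 2 of the 7 limb pSmad1/5 peaks, 3 of the 7 limb Smad4 peaks and 1 of the 5 molar pSmad1/5 peaks. Inside Sp6 a limb pSmad1/5 peak (chr11:97018999-97019047, score 3.16) and a limb Smad4 peak (chr11:97019039-97019087, score 3.07) overlapped, with summits 39 bp apart. The molar pSmad1/5 list had a summit 717 bp inside the upper end (score 3.02) and 2867 bp beyond it (score 3.79), and limb pSmad1/5 had one between, 1314 bp beyond that end (score 3.89). The highest molar pSmad1/5 score of the group, 5.24 and rank 356 in its list, belonged to a peak 26547 bp below Sp6, outside any protein-coding gene. The limb pSmad1/5 and Smad4 peaks farthest out lay 49815 and 49611 bp from Sp6, both inside Sp2. They are the outermost of the peaks kept, and the first left out, a molar Smad4 peak, lay 52039 bp from Edar (score 3.46).

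Edar encodes the receptor for ectodysplasin, the TNF-family ligand that drives placodes of teeth, hair and glands. It lies at chr10:58600780-58675696. For pSmad1/5 it had 1 peak in limb and 2 in molar, and for Smad4 it had 2 and 5. On chromosome 10 limb pSmad1/5 peaks outnumber molar ones, 1151 to 948, and molar Smad4 peaks outnumber limb ones, 2263 to 1487. With 10 peaks in all, the molar shares of 66.7% (9.43 to 99.2%) and 71.4% (29.0 to 96.3%) left neither chromosome value, 45.2% and 60.3%, beyond counting error.

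A molar pSmad1/5 summit lay 94 bp downstream of the annotated start of Edar, in the peak chr10:58675553-58675602 with a score of 3.10. This was the shortest distance to a gene end in the group. The score is near 3.0, the lowest of that list on chromosome 10, where its median is 3.47. The nearest limb peaks lay 37006 bp from that start for pSmad1/5 and 35085 bp for Smad4, and the nearest molar Smad4 summit 4221 bp upstream. The promoter window (RefSeq, GRCm38.p6, chr10:58675647-58675946, minus strand) begins 45 bp from the molar peak and is printed for that reason. Capitals mark AGAC, the Smad box read on the other strand.
Edar: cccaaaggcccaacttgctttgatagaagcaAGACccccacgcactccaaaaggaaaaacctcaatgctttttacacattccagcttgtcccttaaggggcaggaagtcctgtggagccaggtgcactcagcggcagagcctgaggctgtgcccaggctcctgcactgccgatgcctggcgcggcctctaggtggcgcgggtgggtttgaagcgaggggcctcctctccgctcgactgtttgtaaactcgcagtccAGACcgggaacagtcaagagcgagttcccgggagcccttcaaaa
AGAC occurs in 2 places, and neither GTCT nor GGCGCC occurs. The other molar pSmad1/5 peak lay inside the gene, 10111 bp from the start (score 3.28). Molar Smad4 peaks stood inside the gene at 23802, 32740 and 67655 bp from it, of which that at 32740 bp scored highest at 4.23.

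**Figure D4:**
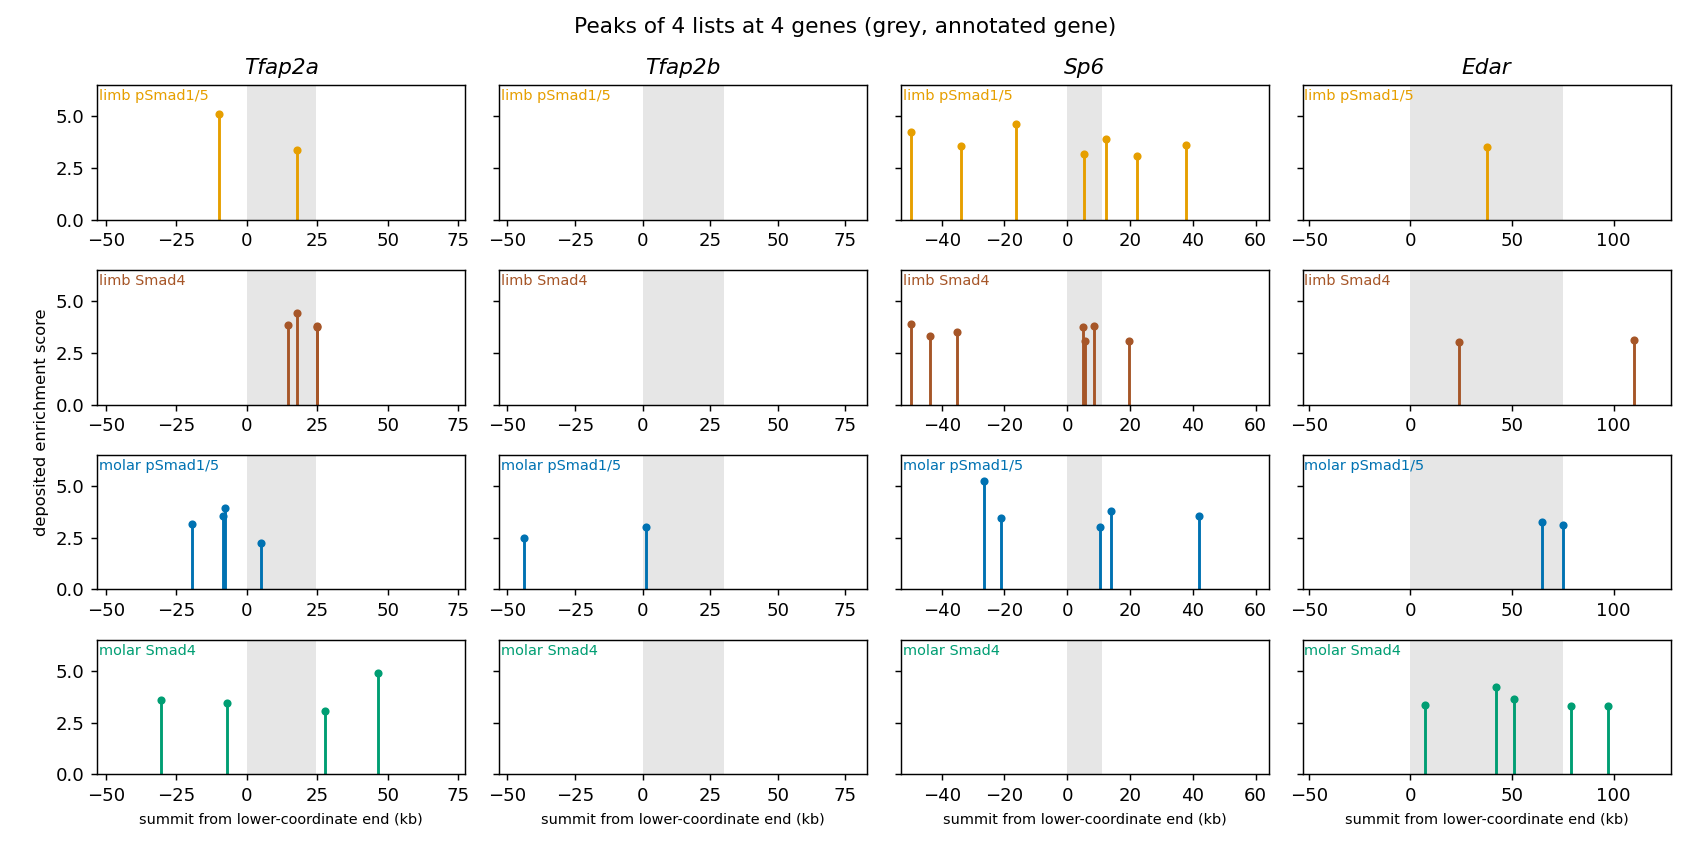
Peaks at Tfap2a, Tfap2b, Sp6 and Edar (columns) in the 4 lists (rows) by summit position relative to the lower-coordinate end of each gene (x axis, kb) and deposited enrichment score (y axis), with the genes in grey. Tfap2b has peaks in the molar pSmad1/5 row alone, Sp6 lacks molar Smad4 peaks, and Edar has a molar pSmad1/5 peak at its upper end.

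Cdh1 and Cdh3 encode E-cadherin and P-cadherin, the calcium-dependent adhesion molecules that hold epithelial cells together; P-cadherin is typical of basal and budding epithelium. They are neighbours on chromosome 8, Cdh3 at chr8:106510852-106556911 and Cdh1 at chr8:106603350-106670247, so some peaks count for both. Cdh1 had 5 pSmad1/5 peaks in limb and 4 in molar, and 3 and 1 for Smad4. Cdh3 had 5 and 6 for pSmad1/5, and 5 and 1 for Smad4. The whole of chromosome 8 holds 1621 and 1089 for pSmad1/5, and 1711 and 440 for Smad4. The molar Smad4 shares, 25.0% at Cdh1 (0.631 to 80.6%) and 16.7% at Cdh3 (0.421 to 64.1%), did not leave the chromosome's 20.5% beyond counting error. The molar pSmad1/5 density at Cdh3 was 4.76 times the chromosome's (1.75 to 10.4), and 11.5% of the chromosome's genes had as many. Of these 6 molar peaks, 3 have Cdh3 as the nearest gene, against all 5 of the limb peaks. Within 10 kb Cdh3 had 5 limb and 2 molar pSmad1/5 peaks.

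The lower-coordinate end of Cdh3 carried pSmad1/5 peaks of both tissues at the same place. The limb peak chr8:106510840-106510965 (score 3.29) and the molar peak chr8:106510922-106510970 (score 3.20) overlapped, with summits 103 and 118 bp inside the gene and 15 bp apart. A second limb summit lay at 828 bp (score 3.38). No listed Smad4 peak was near: the closest limb Smad4 summit lay 6527 bp below that end and the closest molar one 10495 bp below it. On chromosome 8 the molar Smad4 list stops at a score of 4, so a lower-scoring molar Smad4 peak would not be listed. At the lower end of Cdh1, a molar pSmad1/5 summit lay at 362 bp (score 3.0, as low as that list goes on the chromosome) and a limb Smad4 summit at 1020 bp (score 3.80), without overlap.

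Toward the upper end of Cdh1, limb pSmad1/5 had peaks at 5504 bp (score 4.25) and 4129 bp (score 4.87, rank 960 in its list) inside the gene, where the molar list had none. Inside Cdh1 the molar pSmad1/5 peaks lay in the lower part, at 362, 10815 and 19784 bp from the lower end. A limb and a molar summit inside Cdh1 lay near each other, at 18850 and 19784 bp, without overlap.

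**Figure D5:**
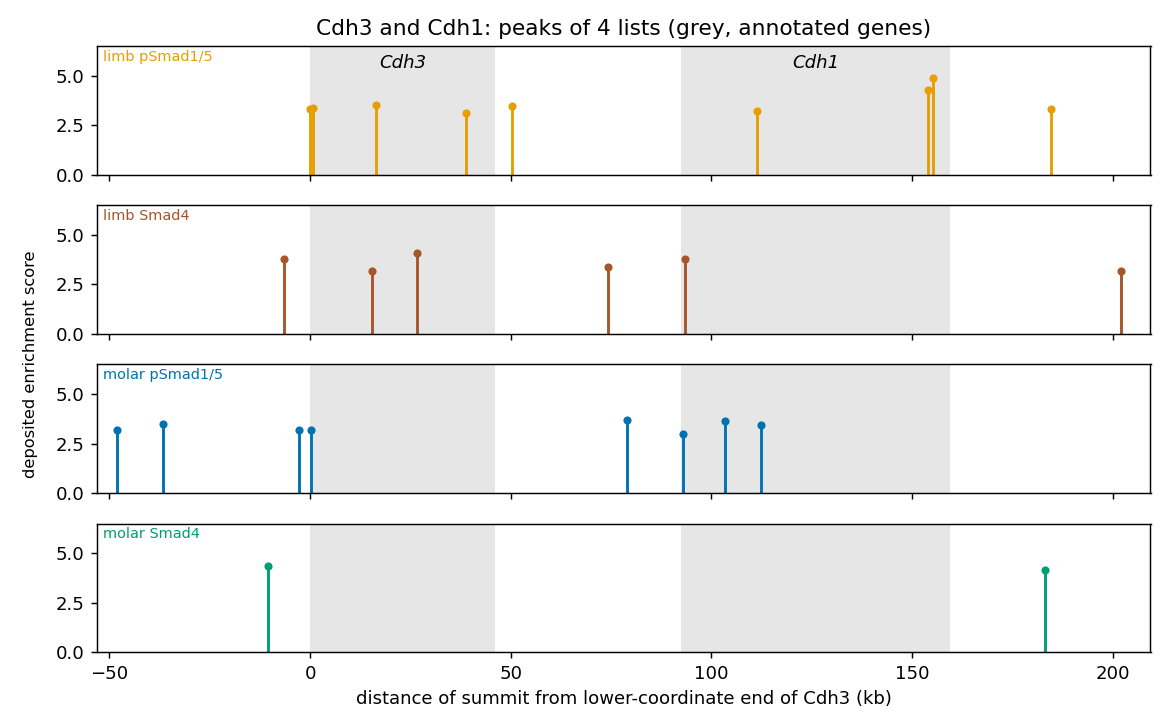
Peaks at Cdh3 and Cdh1 in the 4 lists by summit position relative to the lower-coordinate end of Cdh3 (x axis, kb) and deposited enrichment score (y axis), with both genes in grey. pSmad1/5 peaks of limb and molar coincide at the left end of Cdh3, and the molar Smad4 panel has 1 peak below Cdh3 and 1 above Cdh1.

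Overlaps between lists were few, and the listed peaks are short. Median lengths near the genes were 61 and 59 bp in limb and 60 and 54 bp in molar, for pSmad1/5 and Smad4. Of all pairs of peaks around the 8 genes, 5 overlapped by at least 1 bp: 2 between limb pSmad1/5 and limb Smad4 (Tfap2a and Sp6), 2 between limb and molar pSmad1/5 (Bcl11b and Cdh3), and 1 between limb Smad4 and molar pSmad1/5 (Bcl11b). The limb pairs made up 7.14% of the 28 limb pSmad1/5 peaks and 5.71% of the 35 limb Smad4 peaks, against 5.28% and 3.89% on the same chromosomes. The pSmad1/5 pairs made up 7.14% of the limb and 4.35% of the 46 molar peaks, against 2.10% and 1.07%. The pair of limb Smad4 and molar pSmad1/5 made up 2.86% and 2.17%, close to the 2.71% and 1.87% on the same chromosomes. Molar Smad4 peaks near these genes overlapped no peak of another list; on the same chromosomes 0.856% of them overlapped a molar pSmad1/5 peak, 0.370% a limb Smad4 peak and 0.222% a limb pSmad1/5 peak. The scores of these overlapping peaks ran from 2.88 to 4.40. With summits within 1 kb in place of overlap there were 23 pairs, 4 of them between the molar lists.

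The scores near the genes were compared with those of their lists. In limb the median was 3.48 for pSmad1/5 (3.47 over the same chromosomes) and 3.48 for Smad4 (3.55). In molar it was 3.18 (2.71) and 3.47 (3.44). The molar pSmad1/5 median was thus higher near the genes, and the other three were close to the chromosomes' values. The 2.71 pools chromosomes with medians of 2.51 to 2.52 (1, 12, 13 and 16) and of 3.44 to 3.47 (8, 10 and 11). Chromosome 1 holds 4904 of the pooled peaks but 2 of the 46 near the genes, so both medians weigh the chromosomes differently. Scores were not compared within each chromosome. A score of at least 4 was reached by 7 limb pSmad1/5 peaks, which is 25.0% (10.7 to 44.9%) where the same chromosomes have 21.9%. For limb Smad4 it was reached by 4 peaks, a lower share of 11.4% (3.20 to 26.7%) against 26.4%, a value just inside the interval. In molar 3 pSmad1/5 peaks reached it, 6.52% (1.37 to 17.9%) against 7.97%, and 8 Smad4 peaks, 27.6% (12.7 to 47.2%) against 22.1%. At that score Trp63 had 1 molar pSmad1/5 peak and none in the other lists, Edar 1 molar Smad4 peak, and Tfap2b none.

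The genes closest in their 4 counts were searched on the same chromosome, by the lowest sum of absolute differences over the 4 lists. Ccdc125 had the same counts as Tfap2a (828 genes compared), Ccdc170 those of Edar (999 genes) and Stox2 those of Cdh3 (1040 genes). For Bcl11b the closest was Ppp2r5c, with 10, 11, 17 and 12 peaks and a summed difference of 8. The other four genes had ties, 2 for Trp63, 5 for Tfap2b, 9 for Sp6 and 3 for Cdh1.

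Other genes of dental and surface epithelium, a list of 34 with keratins, junction genes, placode signals and their transcription factors, were counted in the same way. Of the 34, 31 had a limb pSmad1/5 peak, 28 a limb Smad4 peak, 31 a molar pSmad1/5 peak and 30 a molar Smad4 peak, which is 91.2%, 82.4%, 91.2% and 88.2%, where all protein-coding genes have 68%, 71.2%, 74.9% and 68%. Their median numbers of peaks were 2.5, 4, 3.5 and 2, where all protein-coding genes had 1, 2, 2 and 1. Within 1 kb of an end, 11 of the 34 had a limb pSmad1/5 peak (15.5% of all genes), 9 a limb Smad4 peak (21.8%), 10 a molar pSmad1/5 peak (20.7%) and 2 a molar Smad4 peak (7.76%). Molar exceeded limb most at Lef1, the Wnt effector (7 limb and 14 molar pSmad1/5, 2 limb and 8 molar Smad4 peaks), Sox2, a progenitor factor (1 and 8, 0 and 5), and Eda, the Edar ligand (6 and 4, 6 and 16). Lef1 and Sox2 lie on chromosome 3, where the lowest molar pSmad1/5 scores are near 2 and molar peaks outnumber limb peaks for pSmad1/5 (3635 molar and 922 limb) and for Smad4 (2393 and 1095). Eda lies on the X chromosome, with 1411 molar and 1346 limb pSmad1/5 and 3713 molar and 1239 limb Smad4 peaks. Limb exceeded molar most at Wnt7b (14 and 3, 13 and 2), the laminin gene Lama5 (12 and 8, 12 and 1) and Wnt10b (10 and 4, 8 and 0), of which Wnt7b and Wnt10b lie on chromosome 15 with 1203 limb and 832 molar pSmad1/5 and 1541 limb and 1378 molar Smad4 peaks. Lama5 lies on chromosome 2, with 2155 limb and 1470 molar pSmad1/5 and 2631 limb and 673 molar Smad4 peaks, where the molar Smad4 list stops at 4.

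In a list of 20 genes of dental mesenchyme, limb pSmad1/5 peaks were found at 17 (85.0%, against 68% of all genes), limb Smad4 peaks at 18 (90.0% against 71.2%), molar pSmad1/5 peaks at 20 (100% against 74.9%) and molar Smad4 peaks at 19 (95% against 68%), with medians of 4, 4, 5 and 2. Its largest molar excess over both antibodies was 6 peaks, at Inhba, Pax9 and Prrx1. They lie on chromosomes 13, 12 and 1, where molar pSmad1/5 scores reach down to 2 and that list has 2407, 2533 and 4904 peaks against 862, 1131 and 763 in limb, and where Smad4 has 2250, 2070 and 3374 molar against 1036, 1376 and 1764 limb peaks. Its largest limb excess was at Prrx2, Lhx6 and Gli1, where molar minus limb was -7, -5 and -4. Prrx2 and Lhx6 share chromosome 2 with Lama5, and Gli1 lies on chromosome 10 with Edar.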

How the data were processed

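Formaldehyde-fixed tissue was sonicated and precipitated, and the DNA was sequenced on an Illumina instrument, per the labels' protocols. Peaks were called by the authors with BCP in transcription factor mode, per the labels, 1 list per library, on mm10. The submitters' processing notes list bcl2fastq, deepTools, SAMtools, Bowtie2 and bedtools with no role or version; whether inputs served as controls: not given in the sources used here. A deposited peak has an enrichment score, used to describe, rank or filter peaks within a list, a deposited p-value, which was not used, and the deposited start, end, length and summit. Starts were converted to 1-based positions, and mitochondrial peaks were left out.

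Genes were placed by RefSeq (GRCm38.p6), whose main chromosomes have the coordinates of mm10; the table gives no strand, exons or untranslated regions, so places are given by the lower and upper coordinate of a gene. All 8 genes matched by symbol, and 4 had promoter sequences (5 windows). Sequences under the peaks were not used here. Chromosome density is the number of peaks over the span from the first to the last summit of any list. Intervals are exact (Poisson for counts, Clopper-Pearson for shares, at 95%). Windows of 10 and 100 kb, a minimum score of 4, equal list lengths per chromosome, nearest-gene assignment and other distances were tried; a minimum score of 3 and summits within 1 kb were added after seeing the data. The genes, lists and settings were chosen with earlier results of these data known. Named genes are the 8, the 3 with the largest and 3 with the smallest molar minus limb count of each list, and a unique closest gene in the 4 counts, not within 100 kb. Counting was tested on simulated data. Software was matplotlib 3.10.9, scipy 1.17.1, pandas 2.3.3, numpy 2.4.6 and Python 3.11.15.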

Additional observations from a re-analysis of the deposited data

Results flagged for a closer look

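Bcl11b stood out because the order of the antibodies was opposite in the 2 tissues. In limb the pSmad1/5 list had 9 peaks and the Smad4 list 14, a difference of -5, and in molar the lists had 18 and 9, a difference of 9. The difference was not tested, since each value is 1 library. The whole of chromosome 12 turned the same way, with 1131 pSmad1/5 and 1376 Smad4 peaks in limb and 2533 and 2070 in molar. With a score of at least 3 the counts at Bcl11b were 9 and 14 in limb and 8 and 9 in molar, so the turn was absent there.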

How the results depend on the processing

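No paired analysis was possible because each group has 1 library, and leaving out a library leaves no value. Groups of 4 values give limb before molar and, within each, pSmad1/5 before Smad4. With a score of at least 4 the peaks near the genes were 7, 4, 3 and 8, and genes with a peak were 4, 3, 3 and 5. The share of all protein-coding genes with a peak of that score was not computed, so these gene counts have no reference. At that score the limb Smad4 density came to 0.979 times the chromosome's. Gene-end peaks were 0, 0, 1 and 0, and no peaks of different lists overlapped (0 pairs). The molar share was then 30% for pSmad1/5 and 66.7% for Smad4, where the chromosomes give 41.1% and 47.7%. Molar minus limb turned to -1 at Tfap2a and -1 at Bcl11b for pSmad1/5, and to 2 at Bcl11b and 1 at Cdh1 for Smad4. At Cdh1 the Smad4 value rests on the peak inside Tango6. Molar minus limb came to 0 at Tfap2b, Edar and Cdh3 for pSmad1/5, and at Trp63, Sp6 and Cdh3 for Smad4. With equal numbers of top-scoring peaks per chromosome there were 17, 16, 23 and 17 peaks, and 5, 4, 7 and 6 genes with a peak. The share of all genes was not computed for that setting either. Gene-end peaks were then 0, 2, 2 and 1, with 2 overlapping pairs. The molar pSmad1/5 density was 2.67 times the chromosome's, and the Smad4 difference at Cdh1 was 1. Within 10 kb, limb pSmad1/5 had 17, molar pSmad1/5 30 and molar Smad4 16 peaks, and the pSmad1/5 difference at Cdh3 was -3; within 100 kb, molar Smad4 had 44. Within 5 kb of a gene end there were 5, 4, 12 and 6 peaks. Counting nearest genes only, the pSmad1/5 difference was 1 at Cdh1 and -2 at Cdh3. Dropping scores under 3 left molar pSmad1/5 with 30 peaks at 3.36 times the chromosome's density, and the difference at Bcl11b was -1. Summits within 1 kb gave 23 pairs in place of 5. Of the group values, 69 moved by at most 1.5 times or stayed within their intervals. Depth is unknown, so a missing peak is not an absence of binding, and counts of 1 or 2 peaks per gene do not order the tissues.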
